A study of Homo sapiens with 12 samples.

Results

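The effect of miR-143 on the binding of RNA to Argonaute 2 (AGO2) was followed here as a mock-corrected ratio, in which the enrichment of each RNA in the AGO2 precipitate over the mock precipitate of miR-143 cells was divided by the same enrichment in control cells. K562, an erythroleukemia cell line, carried either the lentivirus pLV-miR-143, which expresses miR-143, or the control virus pLV-control after selection with puromycin. According to the methods of the study the cells also carried an inducible C/EBPα (K562-C/EBPα-ER), so that all 4 groups share this background. Each population was a transduced pool of 1 cell line, and each was precipitated with an antibody against AGO2 or with unspecific immunoglobulin G. The 12 samples thus form 4 groups of 3, with control_AGO and miR143_AGO for the AGO2 precipitates and control_IgG and miR143_IgG for the mock. The values available for each group were the averages of the authors in FPKM (fragments per kilobase of transcript, relative to all mapped fragments). There was therefore 1 value per row and group, with no spread between replicates, and none of the ratios below has a replicate check, a test or a p-value. A row was kept when it reached 10 FPKM in control_IgG and in at least 1 AGO column, which left 2370 of 61782 rows, 2001 of them with a single gene name and 369 in which several overlapping genes were joined. The nearest rows outside this limit were SURF2, MICB and TMEM167B at 9.97, 9.98 and 9.999 FPKM in control_IgG, and the nearest inside were RNF7, DEAF1 and PSME4 at 10.03, 10.06 and 10.08 FPKM.

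AGO2 is the protein that holds a mature microRNA and, guided by the seed at the 5′ end of that microRNA, docks on messenger RNAs that carry a matching site, mostly in the 3′ untranslated region (3′ UTR). Docking recruits deadenylases and decapping enzymes, so that a bound messenger is both pulled down with AGO2 and degraded in the cell. RNA that sticks to beads and immunoglobulin comes down in the mock precipitate as well, which is why an AGO2 value is read against IgG. The tables hold no input RNA, so that more binding to AGO2 and more of the transcript in the cell cannot be told apart.

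Both arms of miR-143 are printed from RefSeq (GRCh38.p14) with the seed, bases 2 to 8, in capitals, since the seed defines the sites searched among the kept genes. The arms are followed by the only other 2 human entries of the same table that share the seed of the 3p arm.
hsa-miR-143-3p: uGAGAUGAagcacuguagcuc
hsa-miR-4770: uGAGAUGAcacuguagcu
hsa-miR-6088: aGAGAUGAagcgggggggcg
hsa-miR-143-5p: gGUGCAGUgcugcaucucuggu
The precursor lies at chr5:149428918-149429023 on the plus strand, within the long noncoding RNA gene CARMN. MIR143 was listed at 0 in both control columns and stood at 44781 FPKM in miR143_IgG and 118393 FPKM in miR143_AGO, which matches the labels. It has no value in control_IgG and was for that reason not among the kept rows.

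A messenger that pairs with the whole seed and has an A opposite base 1 carries TCATCTCA, called an 8mer. Sites are shown with 10 bases on each side and the 8mer in capitals, for MAPK7, which the study followed up, for 3 of the kept 8mer genes with the highest corrected ratios and for 2 of those with the lowest (GENCODE 29, GRCh38, strand of the transcript).
MAPK7: ttctgcaggtTCATCTCAgacccacctt
MSI2: ctacatctcaTCATCTCAcgaatctgct
CIAPIN1: gccttgagtcTCATCTCAgcaatgctgc
BAX: taatgcccgtTCATCTCAgtcccctgcc
CYFIP1: ttcacggtgaTCATCTCAacctgagaaa
TOMM40: atccagaaccTCATCTCAggcacactgg
The 8mers lie at chr17:19383351-19383358 in MAPK7, chr17:57679697-57679704 in MSI2, chr16:57428790-57428797 in CIAPIN1, chr19:48961411-48961418 in BAX, chr15:22867434-22867441 in CYFIP1 and chr19:44902599-44902606 in TOMM40, all in the 3′ UTR. MAPK7, the kinase ERK5, stood at 6.69 FPKM (IgG) and 36.9 FPKM (AGO2) in control cells, and 0.0988 and 14.2 FPKM in miR-143 cells (IgG before AGO2 in each pair, as in all such values). With 6.69 FPKM in control_IgG it missed the limit of 10 FPKM, and its corrected ratio of 1.48 (log2, here and below) came from an IgG pair that differed by -2.81 and an AGO pair that differed by -1.32.

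The depth of the columns was unequal. The numbers of fragments are unknown, and the lowest products of FPKM and transcript length, which shrink as sequencing deepens, lay 12.9 times higher in control_IgG than in miR143_AGO, against 1.64 times in miR143_IgG and 1.09 times in control_AGO. Among the kept rows the median was 36.8 FPKM in control_IgG and 30.3 FPKM in miR143_IgG for the mock, and 26.3 FPKM in control_AGO and 24.9 FPKM in miR143_AGO. Erythroid markers were present, with 7 of the 14 listed (such as the transcription factors GATA1 and KLF1 and the globin HBA1) among the kept rows. No marker of granulocytic, lymphoid, fibroblast, epithelial or endothelial cells was kept, and the summed level of the 11 granulocytic markers ran from 7.10 to 28.0 FPKM per column.

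Over the 2370 kept rows the corrected ratio had a median of 0.34 and an SD across rows of 1.62, and 60.2% of rows lay above 0. At least 4-fold higher in miR-143 cells were 345 rows (14.6% of those kept) and at least 4-fold lower were 94 rows (3.97%). At 10-fold, 93 rows were higher and 17 lower. The imbalance changed with the filter. Among the 1553 rows of 10 FPKM or more in all 4 columns, the median was 0.05, 70 rows were higher (4.51%) and 56 lower (3.61%). When the limit was set on miR143_IgG in place of control_IgG, the imbalance turned, with 127 rows higher and 328 lower among 2330 rows and a median of -0.12.

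**Figure D1:**
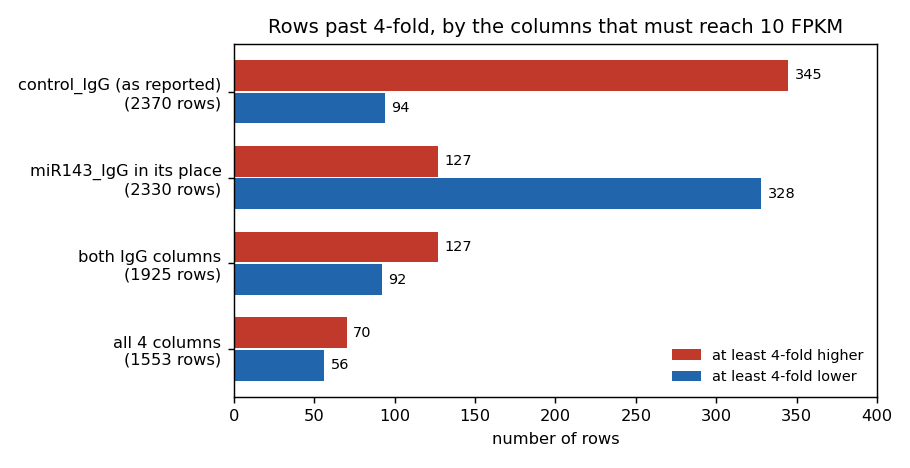
Number of rows at least 4-fold higher (red) or lower (blue) in the corrected ratio when 10 FPKM is required in control_IgG, in miR143_IgG, in both IgG columns or in all 4 columns; in the first 3 cases at least 1 AGO column must also reach 10 FPKM. Higher rows outnumber lower rows 345 to 94 with the limit on control_IgG, and the order turns to 127 against 328 with the limit on miR143_IgG.

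AGO2 over IgG was then set side by side for both populations. Over the kept rows the log2 ratio of control cells and that of miR-143 cells had a Pearson r of 0.52 and a Spearman rho of 0.51 (n = 2370 rows), and among rows of 10 FPKM or more in all columns 0.70 and 0.65 (n = 1553 rows). These describe genes within the same averaged libraries, which are not independent replicates. At a 2-fold limit, 476 rows were depleted from AGO2 in both populations, 199 were enriched in both and 646 lay within 2-fold in both. These 1321 rows make up 55.7%, and 1049 rows (44.3%) passed from one of the 3 states to another. A total of 102 rows passed from depleted in control cells to enriched in miR-143 cells, and 28 did the reverse, under a limit set on control_IgG alone.

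**Figure D2:**
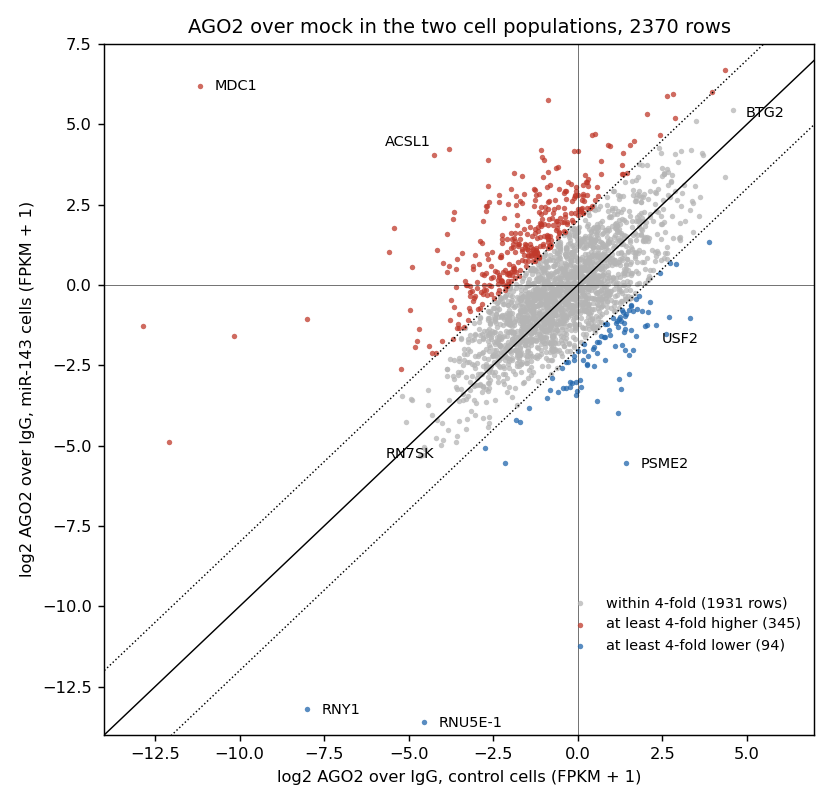
Log2 of AGO2 over IgG in control cells (x axis) and in miR-143 cells (y axis), with 1 FPKM added, for the 2370 kept rows. Points on the solid line have a corrected ratio of 0, the dotted lines mark 4-fold, and most of the cloud follows the solid line; rows far from it to the left or at the bottom, such as RNY1 and RNU5E-1, include those listed at 0 in a column.

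The corrected ratio is the difference between the AGO pair (miR143_AGO over control_AGO) and the IgG pair (miR143_IgG over control_IgG), so that a row can be high because its AGO2 value was higher or because its mock value was lower. The IgG pair varied more across rows (SD 1.24) than the AGO pair (SD 1.02). Of the 345 higher rows, the IgG pair was the larger term in 276 (80.0%), and 204 passed 4-fold on the IgG pair alone against 31 on the AGO pair alone. Their medians were 37.3 FPKM (IgG) and 11.5 FPKM (AGO2) in control cells, and 6.82 and 18.98 FPKM in miR-143 cells. Of the 94 lower rows, the IgG pair was the larger term in 34 (36.2%), 38 passed on the AGO pair alone and 14 on the IgG pair alone. This contrast between the ends turned with the filter. With the limit on miR143_IgG in place of control_IgG, the IgG pair was the larger term in 57.5% of the higher and in 76.2% of the lower rows, and with 10 FPKM or more in all columns in 67.1% and 44.6%. In the reported filter the medians of the lower rows were 19.6, 42.3, 46.3 and 11.6 FPKM in the same order, so that AGO2 was lower and the mock higher at this end.

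The higher end was concentrated where miR143_IgG was low. Of the 36 rows under 1 FPKM in that column 31 were higher, of the 191 rows from 1 to 5 FPKM 108 were, and of the 218 rows from 5 to 10 FPKM 79 were. The count was 63 of 403 from 10 to 20 FPKM and 43 of 709 from 20 to 50 FPKM, where 40 rows were lower. At 50 to 100 FPKM the lower rows (26) outnumbered the higher ones (12) among 385. Since control_IgG was held at 10 FPKM or more and miR143_IgG was not, 218 of the 345 higher rows were under 10 FPKM in miR143_IgG, while the filter allowed no such value in control_IgG. In control_AGO 138 of the 345 were under 10 FPKM. These passed the filter on miR143_AGO, which fixed miR143_AGO above control_AGO in them. In miR143_AGO 37 of the 94 lower rows were under 10 FPKM and passed on control_AGO.

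**Figure D3:**
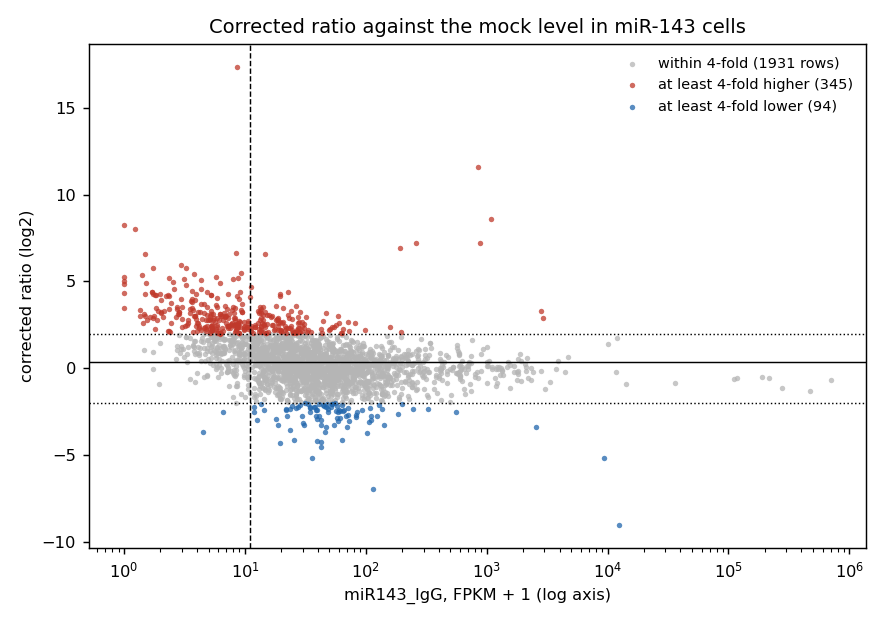
Corrected ratio (log2, y axis) of each kept row against its miR143_IgG level plus 1 FPKM (log x axis). The dashed vertical line marks 10 FPKM, the solid horizontal line the median of 0.34 and the dotted lines 4-fold; 218 of the 345 higher rows (red) lie left of the dashed line.

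The highest corrected ratio belonged to MDC1, a scaffold protein of the DNA damage response, at chr6:30699807-30717889. It stood at 4451 FPKM (IgG) and 0.925 FPKM (AGO2) in control cells, and 7.53 and 623 FPKM in miR-143 cells. The row was thus very high in the mock and nearly absent from AGO2 in control cells, and the order was turned in miR-143 cells, which gave a corrected ratio of 17.37. MDC1 overlaps its antisense gene MDC1-AS1, and since it was not stated that counting used the strand, reads of the pair cannot be told apart. Which RNA within the row gave the 4451 FPKM was not checked, since reads were not analysed here, and the ratio may not be that of the MDC1 messenger.
ACSL1, which activates long-chain fatty acids, followed among the coding genes with 60.5 FPKM (IgG) and 3.43 FPKM (AGO2) in control cells, and 0.225 and 21.9 FPKM in miR-143 cells (corrected ratio 8.02, AGO pair 2.37, IgG pair -5.65). Of the 10 highest rows with a single name, 5 were listed at 0 in control_AGO (RNVU1-7, AL021807.1, RP11-478C6.4, RP11-175B9.3 and a row named U1), and no fold is given for them. The remaining 3 were AP003391.1 at 7.199, AC005786.7 at 6.56 and the pseudogene PPP1R14BP3 at 5.94, whose reads may be shared with the parent gene.

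A smaller group went from depletion to enrichment outright. In 15 rows AGO2 was at least 4-fold under IgG in control cells and at least 4-fold over IgG in miR-143 cells, and no row did the reverse at that size. The filter set this imbalance, since with the limit on miR143_IgG the counts turned to 0 and 15, and with the limit on both IgG columns both were 0. MSI2, an RNA-binding protein of hematopoietic stem cells, was one of them with 23.9 FPKM (IgG) and 2.81 FPKM (AGO2) in control cells, and 1.55 and 11.4 FPKM in miR-143 cells. The other coding rows with a single name were MDC1, ACSL1, KAT5, GALNT6, LRCH3, DCTD, CIAPIN1 and PPP2CB. KAT5, the acetyltransferase TIP60, stood at 38.6 FPKM (IgG) and 5.23 FPKM (AGO2) in control cells, and 0.718 and 13.5 FPKM in miR-143 cells. CIAPIN1, an iron-sulfur protein with a role against apoptosis, stood at 16.3 FPKM (IgG) and 3.17 FPKM (AGO2) in control cells, and 1.57 and 13.8 FPKM in miR-143 cells. DCTD, the dCMP deaminase, stood at 52.1 FPKM (IgG) and 9.68 FPKM (AGO2) in control cells, and 5.16 and 36.1 FPKM in miR-143 cells. In all 9 coding genes miR143_IgG was under 10 FPKM. Control_AGO was under 10 FPKM in all 9 as well, so that they passed the filter on miR143_AGO. That miR143_AGO was above control_AGO in them was thus fixed by the filter. MSI2 and CIAPIN1 carry the 8mers printed above, and MSI2 holds 3 seed sites in its 3′ UTR of 5168 bases.

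Among rows of 10 FPKM or more in all 4 columns, where no value was low, the highest coding gene was PRMT5, an arginine methyltransferase that modifies histones and splicing proteins. PRMT5 stood at 178 FPKM (IgG) and 14.1 FPKM (AGO2) in control cells, and 21.6 and 38.8 FPKM in miR-143 cells, so that AGO2 went from far under the mock to above it (corrected ratio 4.39, AGO pair 1.40, IgG pair -2.99). BAX, a pore-forming protein of apoptosis, stood at 118 FPKM (IgG) and 19.5 FPKM (AGO2) in control cells, and 12.4 and 26.2 FPKM in miR-143 cells. In BAX the AGO pair differed by only 0.40 and the IgG pair by -3.14. RPN1, a subunit of the oligosaccharyltransferase (3.09), the signalling regulator RGS10 (3.17), the COP9 signalosome subunit GPS1 (3.28) and the histone HIST1H2AB (3.58) were also among the 10 highest, and the AGO pair was above 0 in each. AP003391.1 also belonged to them, as did the small nucleolar RNA SNORD17 (4.27, AGO pair -0.58) and the ribosomal protein pseudogene RPL39P3 (3.32).

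At the lower end the leading coding gene was PSME2, a subunit of the 11S proteasome activator, at chr14:24143362-24147570. PSME2 stood at 22.3 FPKM (IgG) and 61.4 FPKM (AGO2) in control cells, and 113 and 1.46 FPKM in miR-143 cells. It was enriched in AGO2 over IgG in control cells and at 1.46 FPKM in miR143_AGO, and its corrected ratio of -6.95 combined an AGO pair of -4.67 with an IgG pair of 2.29. NDUFA5, a subunit of respiratory complex I, followed with 11.6 FPKM (IgG) and 28.1 FPKM (AGO2) in control cells, and 34.7 and 1.25 FPKM in miR-143 cells (corrected ratio -5.19). APLP2, a relative of the amyloid precursor protein, stood at 15.9 FPKM (IgG) and 40.1 FPKM (AGO2) in control cells, and 41.6 and 3.498 FPKM in miR-143 cells (corrected ratio -4.53). BIRC2, the inhibitor of apoptosis cIAP1, stood at 19.7 FPKM (IgG) and 29.4 FPKM (AGO2) in control cells, and 38.8 and 2.25 FPKM in miR-143 cells (corrected ratio -4.17). In these 4 genes both terms pointed the same way, with AGO2 lower and the mock higher in miR-143 cells. C19orf47 (-4.27) and NAPRT, an enzyme of NAD synthesis (-4.13), did the same. All of these genes were under 10 FPKM in miR143_AGO and passed the filter on control_AGO, which fixed the order of their AGO2 values. RNU5E-1 and RNY1, a U5 spliceosomal RNA and a Y RNA, were listed at 0 in miR143_AGO against 429 and 362 FPKM in control_AGO, and no fold is given for them. An exact 0 beside such levels can be a failed estimate. Rows of this kind, 11 at the higher end and 3 at the lower, are included in the counts of both ends and in those of the small RNA classes.

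With 10 FPKM or more in all columns the lowest rows were ERAL1, a chaperone of the mitochondrial ribosome, and USF2, an E-box transcription factor. ERAL1 stood at 11.4 FPKM (IgG) and 74.2 FPKM (AGO2) in control cells, and 62.6 and 21.05 FPKM in miR-143 cells. USF2 stood at 12.7 FPKM (IgG) and 88.3 FPKM (AGO2) in control cells, and 100.4 and 49.5 FPKM in miR-143 cells. Their corrected ratios were -4.13 and -3.71, and the IgG pair was the larger term in both (2.36 and 2.89). IPO9, a nuclear import receptor (-3.68), PHF5A, a splicing factor (-3.40), HNRNPUL1 (-3.27) and the RNA helicase DDX5 (-3.02) followed. DDX5, which takes part in microRNA processing, stood at 35.6 FPKM (IgG) and 50.4 FPKM (AGO2) in control cells, and 71.5 and 11.5 FPKM in miR-143 cells, so that its AGO2 value was lower in miR-143 cells while its mock value was higher. WBP2 (-3.28), the globin HBQ1 (-3.27), the noncoding U91328.1 (-3.39) and RP11-669N7.2 (-3.13) completed the 10. The last was the only one of the 10 whose IgG pair was near 0, at -0.09, with 197 FPKM in control_AGO and 20.3 FPKM in miR143_AGO.

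**Figure D4:**
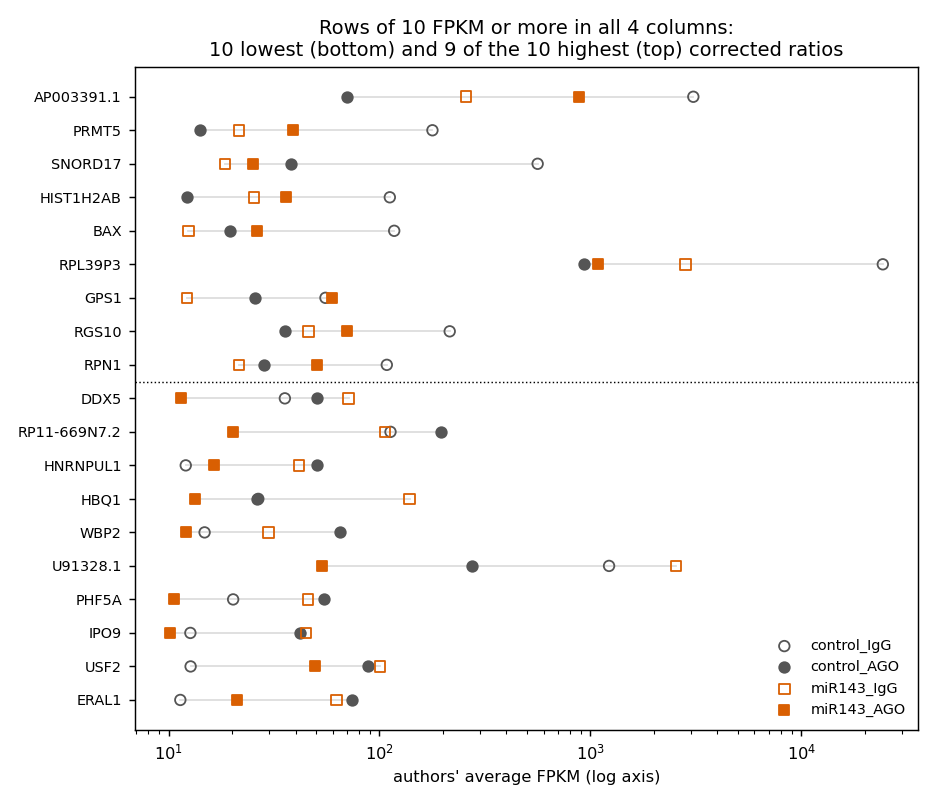
Average FPKM (log x axis) in the 4 groups for the 10 lowest and 9 of the 10 highest corrected ratios among rows of 10 FPKM or more in all 4 columns; open symbols are IgG, filled symbols AGO2, grey circles control cells and orange squares miR-143 cells. In the upper rows the open grey circle lies right of the open orange square, and in the lower rows the filled orange square lies left of the filled grey circle.

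To describe rows in which the mock did not move, those with an IgG pair within 1.5-fold were taken, a choice made after the values had been seen. They were 996 of the kept rows, with a median corrected ratio of 0.05, and 13 of them (1.31%) were at least 4-fold higher and 25 (2.51%) lower. ACAT1, an enzyme of ketone body metabolism, stood at 12.3 FPKM (IgG) and 1.02 FPKM (AGO2) in control cells, and 13.3 and 11.9 FPKM in miR-143 cells. SDHA, the catalytic subunit of respiratory complex II, stood at 49.4 FPKM (IgG) and 6.897 FPKM (AGO2) in control cells, and 51.2 and 41.2 FPKM in miR-143 cells. LMAN2, a cargo receptor of the secretory pathway, stood at 202 FPKM (IgG) and 41.4 FPKM (AGO2) in control cells, and 157 and 171 FPKM in miR-143 cells. In these 3 genes and in LAMB1, DDX41, GRHPR and TBL2 the mock columns lay close together and AGO2 was several-fold higher in miR-143 cells. Both follow from the choice of a mock pair within 1.5-fold and a corrected ratio past 4-fold. ACAT1, SDHA, LAMB1, DDX41 and GRHPR were also under 10 FPKM in control_AGO and passed the filter on miR143_AGO. The corrected ratios were 2.57 for ACAT1, 2.38 for LMAN2, 2.37 for SDHA, 2.07 for the laminin chain LAMB1, 2.04 for TBL2, 2.03 for glyoxylate reductase GRHPR and 2.01 for the helicase DDX41. On the lower side TRA2B, a splicing activator, stood at 54.8 FPKM (IgG) and 42.7 FPKM (AGO2) in control cells, and 57.01 and 5.29 FPKM in miR-143 cells. TESC, a calcium-binding protein, stood at 29.3 FPKM (IgG) and 113 FPKM (AGO2) in control cells, and 37.6 and 20.9 FPKM in miR-143 cells. UBE2S, a ubiquitin-conjugating enzyme of the anaphase-promoting complex, stood at 15.9 FPKM (IgG) and 49.2 FPKM (AGO2) in control cells, and 10.9 and 6.64 FPKM in miR-143 cells. The AGO2 value of all 3 was lower in miR-143 cells, as the choice required. TRA2B and UBE2S were under 10 FPKM in miR143_AGO and passed the filter on control_AGO. CYFIP1, of the WAVE complex, stood at 19.6 FPKM (IgG) and 54.3 FPKM (AGO2) in control cells, and 20.7 and 10.5 FPKM in miR-143 cells. By the same choice the mock columns of these 4 genes were close to each other and their AGO2 values lower in miR-143 cells. Among them is CYFIP1 with the 8mer printed above.

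RNAs held by AGO2 in both populations are described next. AGO2 exceeded IgG at least 4-fold in both populations in 60 rows, 49 of them coding, with a median corrected ratio of 0.51 (quartiles -0.11 and 0.98) and with 7 rows at least 4-fold higher (11.7%, against 14.6% of all kept rows) and 0 lower. Within 4-fold were 88.3% of them and 81.5% of all kept rows. BTG2, an antiproliferative early-response gene, led them with 11.1 FPKM (IgG) and 289 FPKM (AGO2) in control cells, and 5.31 and 274 FPKM in miR-143 cells. SERTAD3 stood at 26.7 FPKM (IgG) and 561 FPKM (AGO2) in control cells, and 35.99 and 379 FPKM in miR-143 cells. GATA2, a transcription factor of hematopoietic progenitors, stood at 20.8 FPKM (IgG) and 158 FPKM (AGO2) in control cells, and 10.4 and 85.3 FPKM in miR-143 cells. AGO2 values of BTG2 were nearly the same with and without miR-143. TNFRSF12A, the receptor of TWEAK, had a corrected ratio of 2.32 with an AGO pair of -0.02, its values being 25.9 FPKM (IgG) and 549.8 FPKM (AGO2) in control cells, and 4.31 and 543 FPKM in miR-143 cells. CITED2 (2.04, AGO pair -0.23) and S100A11 (2.32, AGO pair 0.08) were of the same kind. This group was picked after its values had been seen.

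Gene classes were then described by the counts and medians of their kept members, set against the median of 0.34 over all kept rows and, for rows of 10 FPKM or more in all columns, against 0.05. Scaling the columns to the same median lowered the median of all kept rows by 0.19, so that class medians are given as differences from it. The small RNAs of ribonucleoproteins had the lowest median in the reported filter, but not with 10 FPKM or more in all columns or with the limit on miR143_IgG. All 8 kept members of that list had a corrected ratio below 0, while 60.2% of all kept rows lay above 0. Their median was 1.05 under that of all rows and, in the 7 of them that reached 10 FPKM everywhere, 0.62 under. The sign of this difference was the same under both scalings and with the limit on miR143_IgG. RN7SK, which holds the elongation factor P-TEFb, stood at 280876 FPKM (IgG) and 23862 FPKM (AGO2) in control cells, and 277835 and 10609 FPKM in miR-143 cells (corrected ratio -1.15). RMRP and RPPH1, the RNA parts of RNase MRP and RNase P, had -0.84 and -0.94, and RN7SL1 and RN7SL2 of the signal recognition particle -0.57 and -0.50. In these 5 the IgG pair lay between -0.49 and -0.02 and the AGO pair between -1.33 and -0.82, so that AGO2 carried the difference. Not so in TERC (AGO pair 0.49, IgG pair 0.71) and RN7SKP255 (0.18 and 0.44), where AGO2 was higher in miR-143 cells and the mock carried the ratio. The remaining member, RNY1, was listed at 0 in miR143_AGO.

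Mitochondrially encoded RNAs behaved alike. Of the 9 kept, 8 were below 0, the AGO pair was below 0 in all 9, and the median was 0.93 under that of all rows (0.64 under among rows of 10 FPKM or more everywhere, to which all 9 belong). Of all kept rows 60.2% lay above 0, and the AGO pair was below 0 in 46.7%. The ribosomal RNA MT-RNR2 stood at 178102 FPKM (IgG) and 9670.4 FPKM (AGO2) in control cells, and 117578 and 4316 FPKM in miR-143 cells (corrected ratio -0.56). MT-ND1, a complex I subunit, stood at 102 FPKM (IgG) and 35.99 FPKM (AGO2) in control cells, and 149.5 and 19.4 FPKM in miR-143 cells (-1.41). MT-ND3 was the exception at 0.81. No member of this list passed 4-fold. All 9 were under IgG in both populations.

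Spliceosomal and nucleolar RNAs did not share one direction. RNU4-1 and RNU4-2, the U4 RNAs, were at -1.30 and -0.67. RNU4-2 stood at 675467 FPKM (IgG) and 47322 FPKM (AGO2) in control cells, and 706258 and 31202 FPKM in miR-143 cells. RNU11 of the minor spliceosome was at 2.89, with 11804 FPKM (IgG) and 418 FPKM (AGO2) in control cells, and 2934 and 773 FPKM in miR-143 cells. The median of the 8 kept spliceosomal rows was 1.22 above that of all rows, but 3 of the 8 were listed at 0 in an AGO column, and for the 5 with 10 FPKM or more everywhere it was 1.34 above. Among 7 kept nucleolar and Cajal body RNAs, SNORD17 (4.27), SCARNA7 (3.02) and SCARNA13 (2.93) were at least 4-fold higher (42.9%, against 14.6% of all kept rows). SNORD3A, the U3 RNA, was at -1.65. Many of these genes have near-identical copies or lie within other genes, so that the assignment of their reads is uncertain.

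Cytosolic ribosomal proteins were the tightest large class. None of the 59 kept members passed 4-fold, 50 were within 2-fold (84.7%, against 54.6% of all kept rows), and the range was -1.93 (RPS4X) to 1.61 (RPS21). RPS21 stood at 1564 FPKM (IgG) and 171 FPKM (AGO2) in control cells, and 758 and 255 FPKM in miR-143 cells. RPS4X stood at 271 FPKM (IgG) and 77.4 FPKM (AGO2) in control cells, and 493 and 36.3 FPKM in miR-143 cells. The median was 0.37 under that of all rows and 0.08 under it among rows of 10 FPKM or more everywhere, and it lay 0.09 above it when the limit was set on miR143_IgG. AGO2 was under IgG in 56 of 59 in control cells and in 56 of 59 in miR-143 cells (94.9%, against 65.9% and 55.2% of all kept rows), and at least 2-fold under it in 46 and 47. Of 36 mitochondrial ribosomal proteins, MRPL43 (2.29) was at least 4-fold higher and MRPL36 (-2.18) and MRPL10 (-2.01) were lower (2.78% and 5.56%, against 14.6% and 3.97% of all kept rows). Of 27 translation factors 3 were higher (11.1%, against 14.6% of all kept rows) and 0 lower, namely EIF1AD (4.09), the cap-binding protein EIF4E2 (2.57) and EIF3D (2.11). EIF4E2 stood at 46.03 FPKM (IgG) and 15.8 FPKM (AGO2) in control cells, and 14.4 and 31.6 FPKM in miR-143 cells.

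The proteasome and the respiratory chain reached both ends. Of 25 kept proteasome genes 4 were lower and 1 was higher, against 3.97% and 14.6% of all kept rows. PSME2, PSMD11 (-3.54), the assembly chaperone PSMG4 (-2.98) and the ATPase PSMC4 (-2.23) made up the lower set, and PSMD5, an assembly chaperone of the base, stood at 13.1 FPKM (IgG) and 2.85 FPKM (AGO2) in control cells, and 6.76 and 20.5 FPKM in miR-143 cells (3.34). PSMD11, a lid subunit, stood at 11.5 FPKM (IgG) and 60.8 FPKM (AGO2) in control cells, and 22.6 and 9.004 FPKM in miR-143 cells. PSME2, PSMD11 and PSMC4 were under 10 FPKM in miR143_AGO and passed the filter on control_AGO. PSMD5 was under 10 FPKM in control_AGO and passed on miR143_AGO. The filter thus fixed the order of the AGO2 values in PSME2, PSMD11, PSMC4 and PSMD5. The class median was 0.59 under that of all rows, but 0.34 above it for the 12 members with 10 FPKM or more everywhere. Of 32 nuclear-encoded respiratory chain subunits 4 were higher and 2 lower (12.5% and 6.25%). NDUFA5 of complex I was the lowest, and complex II held a gene at each end, SDHA (2.37) and SDHB (-2.09). SDHB stood at 10.8 FPKM (IgG) and 23.6 FPKM (AGO2) in control cells, and 32.2 and 15.3 FPKM in miR-143 cells, so that its higher mock value in miR-143 cells carried the ratio, while SDHA was carried by AGO2. Cytochrome c (CYCS) was at 2.26 and NDUFS1 at 2.00. As said above, SDHA passed the filter on miR143_AGO and NDUFA5 on control_AGO.

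Of 36 histone genes 4 were higher (11.1%, against 14.6% of all kept rows) and 0 lower (against 3.97%). HIST1H2AB stood at 112 FPKM (IgG) and 12.2 FPKM (AGO2) in control cells, and 25.4 and 35.9 FPKM in miR-143 cells. HIST1H3D stood at 125 FPKM (IgG) and 12.2 FPKM (AGO2) in control cells, and 97.3 and 45.4 FPKM in miR-143 cells (corrected ratio 2.18), followed by HIST1H2BO (2.06) and HIST3H2A (2.05). AGO2 values of all 4 were higher in miR-143 cells, in genes taken for a corrected ratio past 4-fold. HIST3H2A was under 10 FPKM in control_AGO and passed the filter on miR143_AGO, which fixed the order of its AGO2 values. The class median lay 0.06 under that of all rows, or 0.21 above it among rows of 10 FPKM or more everywhere. Among 13 genes of endoplasmic reticulum translocation and folding, RPN1, DAD1 (2.69) and SEC61B (2.04) were higher and none was lower (23.1% and 0%, against 14.6% and 3.97% of all kept rows). DAD1, another subunit of the oligosaccharyltransferase, stood at 112 FPKM (IgG) and 26.8 FPKM (AGO2) in control cells, and 70.04 and 111 FPKM in miR-143 cells. SEC61B, a subunit of the translocon, stood at 43.4 FPKM (IgG) and 58.6 FPKM (AGO2) in control cells, and 23.9 and 137 FPKM in miR-143 cells. The disulfide isomerase P4HB was lowest at -1.85, where AGO2 hardly differed (-0.21) and the mock was higher (1.64). Of 12 glycolytic genes none passed 4-fold, and GAPDH was at 0.12 with 566 FPKM (IgG) and 467 FPKM (AGO2) in control cells, and 584 and 522 FPKM in miR-143 cells. The actin gene ACTB was at -0.62.

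**Figure D5:**
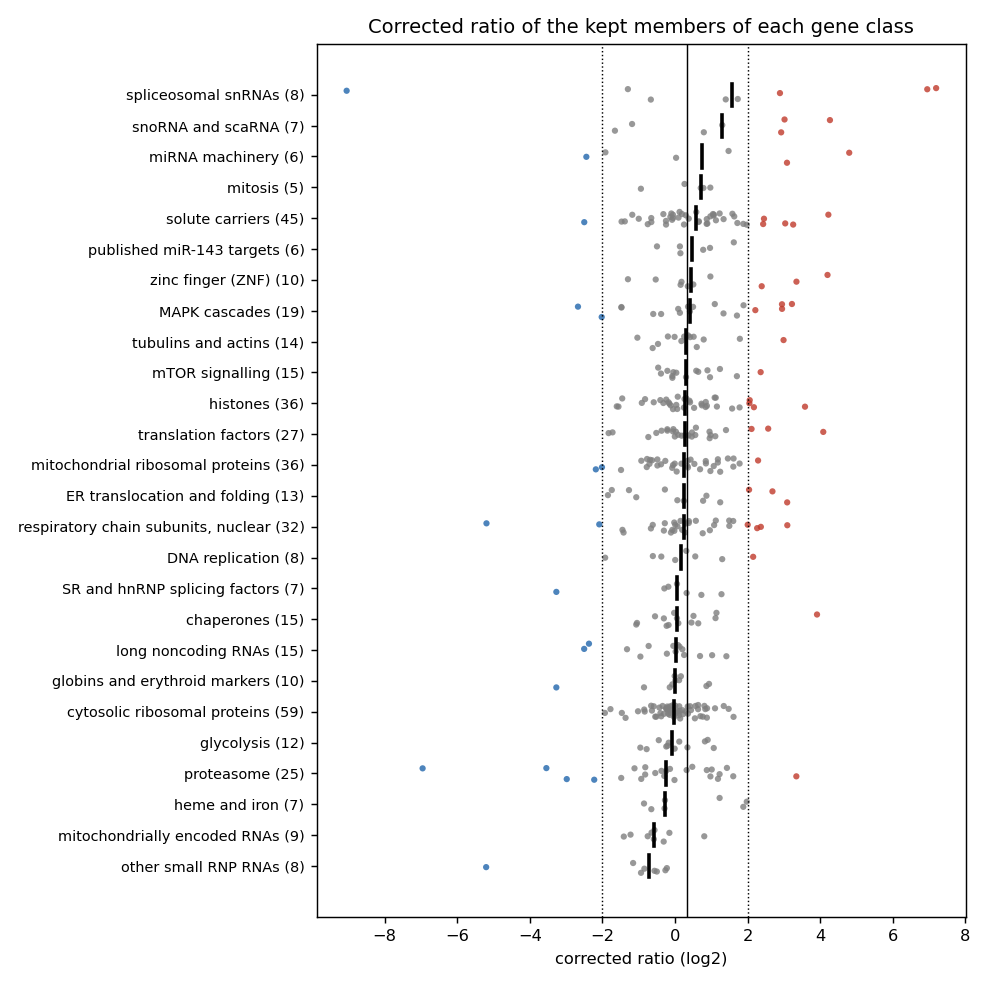
Corrected ratio (log2) of the kept members of each gene class with 5 or more of them (number in brackets), sorted by class median (black bars). The solid line is the median of all kept rows and the dotted lines are 4-fold, with members past it in red or blue; the small RNP and mitochondrially encoded RNAs lie left of the solid line, except MT-ND3.

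Pathways that the study took up were looked at member by member. Of 81 listed genes of MAPK cascades 19 were kept, of which 4 were higher and 2 lower (21.1% and 10.5%, against 14.6% and 3.97% of all kept rows). MAP3K11, which activates JNK signalling, stood at 21.7 FPKM (IgG) and 11.4 FPKM (AGO2) in control cells, and 1.86 and 13.6 FPKM in miR-143 cells (3.22), and MAP4K2 and MAPKAPK5 were both at 2.95. MAPKAPK5, whose longest 3′ UTR holds 2 sites of the 8mer type, stood at 29.5 FPKM (IgG) and 35.7 FPKM (AGO2) in control cells, and 1.67 and 23.8 FPKM in miR-143 cells. MAPK6 (ERK3) stood at 24.8 FPKM (IgG) and 26.7 FPKM (AGO2) in control cells, and 4.31 and 25.4 FPKM in miR-143 cells (2.21). In all 4 genes miR143_IgG was under 5 FPKM, and the AGO pair lay between -0.56 and 0.23. Lower were MAP2K2 (MEK2, -2.67) and the adaptor GRB2 (-2.02). MAP2K2 stood at 37.5 FPKM (IgG) and 168 FPKM (AGO2) in control cells, and 69.5 and 47.5 FPKM in miR-143 cells. GRB2 stood at 11.04 FPKM (IgG) and 12.7 FPKM (AGO2) in control cells, and 30.5 and 7.83 FPKM in miR-143 cells. GRB2 and MAP4K2 were under 10 FPKM in miR143_AGO and passed the filter on control_AGO. That fixed the order of their AGO2 values. Of the 12 MAPK members with 10 FPKM or more in all columns 0 were higher and 1 was lower. Of all such rows 4.51% were higher and 3.61% lower. The kinase MAPK3 (ERK1) was at 1.71. Of 15 kept genes of mTOR signalling, MAPKAP1, the mTORC2 subunit SIN1, was at least 4-fold higher (2.36) with 21.98 FPKM (IgG) and 3.89 FPKM (AGO2) in control cells, and 12.7 and 13.96 FPKM in miR-143 cells, and none was lower. The shares of this list were thus 6.67% and 0%, against 14.6% and 3.97% of all kept rows. MAPKAP1 was under 10 FPKM in control_AGO and passed the filter on miR143_AGO, which fixed the order of its AGO2 values. Of the 12 mTOR members with 10 FPKM or more in all columns none passed 4-fold.

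Of 31 published targets of miR-143 listed from general knowledge, 6 were kept and none passed 4-fold. IGF1R, a growth factor receptor, stood at 27.7 FPKM (IgG) and 12.6 FPKM (AGO2) in control cells, and 5.72 and 8.83 FPKM in miR-143 cells (1.62). The kinase AKT1 stood at 69.2 FPKM (IgG) and 31.3 FPKM (AGO2) in control cells, and 59.6 and 53.5 FPKM in miR-143 cells (0.97). LIMK1 (0.78), FSCN1 (0.15), ELK1 (0.14) and ADD3 (-0.50) followed. AGO2 values were lower in miR-143 cells in 5 of the 6, AKT1 being the exception, and the mock values were lower in all 6. IGF1R, ELK1 and ADD3 were under 10 FPKM in miR143_AGO and passed the filter on control_AGO. That fixed the order of their AGO2 values. Over all kept rows the AGO pair was below 0 in 46.7% and the IgG pair in 62.5%. Of the genes that act with AGO2 in processing and silencing 6 were kept. The decapping factors EDC3 and DCP2 were higher (4.801 and 3.09). Rows at least 4-fold higher made up 33.3% of this list and 14.6% of all kept rows. For rows at least 4-fold lower these shares were 16.7% and 3.97%. EDC3 stood at 30.2 FPKM (IgG) and 3.48 FPKM (AGO2) in control cells, and 2.23 and 11.9 FPKM in miR-143 cells. EDC3 was under 10 FPKM in control_AGO and passed the filter on miR143_AGO, which fixed the order of its AGO2 values. DCP2 stood at 93.8 FPKM (IgG) and 10.99 FPKM (AGO2) in control cells, and 14.3 and 15.4 FPKM in miR-143 cells. In the same list the deadenylase subunit CNOT8 was lower (-2.44), and CNOT1, the scaffold of the same complex, was at -1.92. CNOT8 was under 10 FPKM in miR143_AGO and passed the filter on control_AGO. TARBP2, a partner of Dicer, was at 1.48.

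Of 10 kept globins and erythroid markers, which mark the cell of origin, 9 were within 2-fold (90.0%, against 54.6% of all kept rows). Their median was 0.34 under that of all rows, 0.13 under it among rows of 10 FPKM or more everywhere and 0.05 above it with the limit on miR143_IgG. KLF1 stood at 41.9 FPKM (IgG) and 281 FPKM (AGO2) in control cells, and 42.8 and 289 FPKM in miR-143 cells (0.01). GYPB, a glycophorin, stood at 119.5 FPKM (IgG) and 387 FPKM (AGO2) in control cells, and 186 and 572 FPKM in miR-143 cells (-0.07). HBQ1 was the only one past 4-fold, with 26.6 FPKM (IgG) and 26.2 FPKM (AGO2) in control cells, and 139 and 13.3 FPKM in miR-143 cells. HBA1 (0.94) and HBA2 (-0.01) have near-identical coding sequences, so that reads may have been split between them.

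Genes with a seed site for miR-143-3p in the longest annotated 3′ UTR were set beside those without. Among 1773 kept coding genes with a 3′ UTR, 336 had a site (TCATCTCA, TCATCTC or CATCTCA, searched on the transcript strand), with a median corrected ratio of 0.49 against 0.32 for the 1437 without. At least 4-fold higher were 15.8% of genes with a site and 14.3% of those without, and at least 4-fold lower 2.08% and 4.04%. Among rows of 10 FPKM or more in all columns the order of the higher shares turned, with 3.63% of genes with a site and 4.78% of those without, while 1.55% and 4.04% were lower. For the 58 carrying an 8mer the median was 0.56. The 3′ UTRs with a site were longer (median 2034.5 against 665 bases). Among 3′ UTRs of 1000 bases or more the medians were 0.49 (261 genes) and 0.35 (525 genes), and among rows of 10 FPKM or more in all columns 0.15 (193 genes) and 0.03 (941 genes). The 73 genes with 2 or more sites held 19 at least 4-fold higher (26.0%) and 0 lower, with a median of 0.32 and a median 3′ UTR of 3511 bases. Of the 34 that reached 10 FPKM in all columns 3 were higher (8.82%), and their median was -0.09. When sites were searched in the shortest 3′ UTR in place of the longest, the difference between the medians with and without a site was 0.04 in place of 0.17. For the 5p arm the medians were 0.41 in 222 genes with a site and 0.36 in 1551 without. Among rows of 10 FPKM or more in all columns this order turned, with -0.17 (126 genes) and 0.07 (1008 genes). Compared with an SD of 1.62 across rows, these differences between medians are small, and no spread between replicates was available to set beside them.

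The 8mer genes at both ends show how the terms combined. MSI2 (4.99), CIAPIN1 (4.58), BAX (3.55), ZNF526 (3.35) and CPD (3.18) were the 5 highest. ZNF526, a zinc finger protein, stood at 11.7 FPKM (IgG) and 10.1 FPKM (AGO2) in control cells, and 0.345 and 10.9 FPKM in miR-143 cells. CPD, carboxypeptidase D, stood at 61.4 FPKM (IgG) and 15.7 FPKM (AGO2) in control cells, and 5.68 and 15.2 FPKM in miR-143 cells. The AGO2 values of both were nearly equal with and without miR-143. CYFIP1 (-2.33), UBE2E1 (-1.68), TOMM40 (-1.28), TLE3 (-1.01) and BUB3 (-0.94) were the 5 lowest. TOMM40, the pore of the outer mitochondrial membrane, stood at 38.4 FPKM (IgG) and 129 FPKM (AGO2) in control cells, and 95.98 and 131 FPKM in miR-143 cells, so that AGO2 was nearly equal and the mock higher in miR-143 cells. Of these 10 genes, AGO2 differed by more than 2-fold in MSI2, CIAPIN1 and CYFIP1, upward in the first 2 and downward in the third. The filter fixed the upward direction in MSI2 and CIAPIN1, which were under 10 FPKM in control_AGO. All 10 were chosen by their corrected ratios.

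By transcript type, 1794 of the kept rows were protein-coding (median 0.36, 262 higher and 65 lower). Of 27 long noncoding RNAs 2 were higher and 5 lower (7.41% and 18.5%, median 0.09). Of 44 pseudogenes 7 were higher and 4 lower (15.9% and 9.09%, median 0.36). The shares of all kept rows were 14.6% and 3.97%. Of the 15 kept long noncoding RNAs of the list, TUG1 and SNHG8 were lower (-2.50 and -2.37), which is 13.3%. TUG1 stood at 16.96 FPKM (IgG) and 59.2 FPKM (AGO2) in control cells, and 5.62 and 2.92 FPKM in miR-143 cells, whereas MEG3 (0.20), GAS5 (0.09) and SNHG16 (0.13) were near 0. TUG1 was under 10 FPKM in miR143_AGO and passed the filter on control_AGO. Transcripts had a median length of 3088.5 bases and 53.5% GC at the higher end, of 2615.5 bases and 53.4% GC at the lower end and of 2658 bases and 54.8% GC between.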

How the data were processed

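RNA was immunoprecipitated with an AGO2 antibody or unspecific IgG from control and miR-143 K562 cells and sequenced (12 samples, 4 groups of 3, assigned from the sample titles). The deposited tables, 1 per group with 61782 rows in the same order, hold 1 FPKM value per row, averaged over the group by the authors. The submitters' processing notes name TopHat, Cufflinks and build hg38, while versions and annotation are not given in the sources used here. The labels and the methods of the study describe library preparation differently, and whether counting used the strand was not stated. Values of single samples were not analysed here, and fragment numbers are unknown, so that no interval, SD or test could be given.

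The corrected ratio was computed as log2 of (miR143_AGO over miR143_IgG) divided by (control_AGO over control_IgG), with 1 FPKM added to each value, which understates the change of low rows. A call was 4-fold. Rows were kept at 10 FPKM or more in control_IgG and in an AGO column. Of 2001 kept rows with 1 name, 1885 were found in GENCODE 29 (GRCh38), which gave coordinates, types and 3′ UTRs. Its annotation may differ from that of the authors. Named were MAPK7, MIR143, GAPDH, ACTB, the 10 highest and 10 lowest rows with 1 name (also among rows of 10 FPKM or more in all columns), the highest and lowest members of 32 lists, listed pathway members past 4-fold and the 5 highest and lowest 8mer genes. A few rows that this rule names are not reported here. Further genes were picked from their values, and this is said where it applies. The members and lists were chosen with earlier results of these data known. Scripts used Python 3.11.15, pandas 2.3.3 and numpy 2.4.6, and recovered the fold changes put into simulated tables. Other pseudocounts, filters, scalings and limits were tried.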

Additional observations from a re-analysis of the deposited data

How the results depend on the processing

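With no values of single samples, leaving out a replicate could not be run, and error and depth could not be weighed. No paired analysis was possible because each group is deposited as 1 average. Of the 92 genes that the naming rule gave, which alone were run under the alternatives, none past 4-fold changed its sign under an alternative that kept it. A filter keeps or drops a row and leaves its ratio unchanged. For these genes only the other pseudocounts and the scalings could thus have changed a sign. The number of kept rows was 3597 at 5 FPKM, 1339 at 20 FPKM, 512 at 50 FPKM, 1553 with the limit on all 4 columns and 15489 with no filter. Rows at least 4-fold higher and lower, 345 and 94 as reported, came to 611 and 169 at 5 FPKM, 153 and 38 at 20 FPKM, 31 and 12 at 50 FPKM, 1672 and 1994 with no filter, 102 and 40 with 10 FPKM added in place of 1, 70 and 56 with the limit on all columns, 127 and 328 with the limit on miR143_IgG and 127 and 92 with the limit on both IgG columns. At 2-fold they were 744 and 333, and at 10-fold 93 and 17. Scaling to the same median gave 294 and 124. The higher share of calls, 78.6% as reported, became 70.3% under that scaling, 55.6% with the limit on all columns and 27.9% with the limit on miR143_IgG. The share of the lower end in which the IgG pair was the larger term, 36.2%, became 76.2% with the limit on miR143_IgG. The difference between genes with and without a seed site, 0.17, ran from 0.001 (2 or more sites) to 0.24 (8mers). Rows above 0 in all 4 columns, an alternative chosen after seeing the data, gave 334 and 91. Of 60 named genes past 4-fold, 17 lost the call with 10 FPKM added and 1 under scaling to the same median. The cause of these shifts was not tested, beyond the fewer or other rows that each filter lets in.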

Other observations

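Other gene groups were described by symbol, a grouping made after the values had been seen. Surface antigens with a CD symbol stood high (8 kept genes, median 1.44, against 0.34 for all rows). CD46, a complement regulator, stood at 44.3 FPKM (IgG) and 23.1 FPKM (AGO2) in control cells, and 2.87 and 30.8 FPKM in miR-143 cells (corrected ratio 3.95). The tetraspanin CD53 stood at 63.2 FPKM (IgG) and 9.77 FPKM (AGO2) in control cells, and 29.9 and 24.6 FPKM in miR-143 cells (2.31). CD53 was under 10 FPKM in control_AGO and passed the filter on miR143_AGO. Another tetraspanin, CD81, was at 1.99. CD33, a myeloid antigen, was at 0.78 and CD151 at -0.34. The mock value was lower in miR-143 cells in each of these 5. Subunits of complex I with an NDUFS symbol (6 genes, median 1.55) stood above those with an NDUFA symbol (7 genes, median -0.31), and small-subunit mitochondrial ribosomal proteins (MRPS, 13 genes, median 0.85) above large-subunit ones (MRPL, 23 genes, median 0.18). The order of MRPS and MRPL turned among rows of 10 FPKM or more in all columns. There the middle MRPS gene was MRPS18B (-0.007) and the middle MRPL gene MRPL24 (0.18). Cyclin-dependent kinases (6 genes with a CDK symbol, median 1.25) included CDK4 at 1.92 with 156 FPKM (IgG) and 31.1 FPKM (AGO2) in control cells, and 62.7 and 48.2 FPKM in miR-143 cells, CDK7 at 1.40 and CDK5 at -1.54. Ubiquitin-conjugating and related enzymes with a UBE symbol (8 genes, median -0.92) ran from UBE2S at -2.21 to UBE3C at 1.24. Each group is small, and its difference from all rows was not tested.

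Solute carriers counted 45 kept genes, 5 of them higher and 1 lower (11.1% and 2.22%, against 14.6% and 3.97% of all kept rows). Genes of heme and iron metabolism lay on both sides of 0. The median of the 7 kept genes of that list was -0.28, which is 0.62 under that of all rows and turned to 0.40 above it with the limit on miR143_IgG, and 4 of the 7 were below 0. The solute carrier SLC11A2 (DMT1), which takes up ferrous iron, was not on that list and was picked from its value. SLC11A2 stood at 15.9 FPKM (IgG) and 13.9 FPKM (AGO2) in control cells, and 2.17 and 14.03 FPKM in miR-143 cells (2.43). The exporter SLC40A1 (ferroportin) stood at 58.6 FPKM (IgG) and 121 FPKM (AGO2) in control cells, and 27.4 and 213 FPKM in miR-143 cells (1.88). SLC25A38, the mitochondrial glycine carrier of heme synthesis, was at 1.98. The transferrin receptor TFRC (-0.85) and mitoferrin SLC25A37 (-0.65) were below 0, as were the ferritin chain FTH1 (-0.29) and UROD (-0.28), an enzyme of heme synthesis. The other ferritin chain of the list, FTL, was above 0 (1.23, AGO pair 0.83). AGO2 values of SLC11A2 were nearly equal and its mock value was lower in miR-143 cells, whereas SLC40A1 had both a higher AGO2 and a lower mock value. The ribonucleotide reductase subunits stood apart, RRM2 at 2.15 and RRM1 at -1.92. RRM2 stood at 39.4 FPKM (IgG) and 7.12 FPKM (AGO2) in control cells, and 18.9 and 16.8 FPKM in miR-143 cells. RRM1 stood at 33.04 FPKM (IgG) and 99.5 FPKM (AGO2) in control cells, and 62.6 and 48.5 FPKM in miR-143 cells, so that its AGO2 value was lower and that of RRM2 higher in miR-143 cells. RRM2 was under 10 FPKM in control_AGO and passed the filter on miR143_AGO, which fixed the order of its AGO2 values. Of 5 kept mitotic genes none passed 4-fold, and AGO2 was higher in miR-143 cells in all 5 (against 53.3% of all kept rows), with the AGO pair at 1.42 for AURKB and 0.78 for PLK1. Among 8 nucleoporins NUP35 was highest at 5.44, with 41.6 FPKM (IgG) and 1.93 FPKM (AGO2) in control cells, and 2.77 and 10.3 FPKM in miR-143 cells, and NUP93 lowest at -1.61. NUP35 was under 10 FPKM in control_AGO and passed the filter on miR143_AGO, which fixed the order of its AGO2 values.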
